A study of Mus musculus with 47 samples.

Results

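The 9 complement components and regulators were followed in mice that had inhaled welding fume: C1qa, C1qb, C2, C3, C4b, Cfb, Serping1, C3ar1 and C5ar1. They were found by symbol in the deposited array tables, and each of the 9 had 1 entry of 1 probe among the 17932 named genes. Male C57BL/6J mice, 6 weeks of age per the study's methods, breathed air or the fume of gas metal arc welding of stainless steel (GMA-SS) on 10 d, for 3 hr each day and at 40 mg/m3, and tissues were taken 4 hr or 28 d after the last exposure. Lung, whole blood cells depleted of globin RNA, and aorta were measured, 1 beadchip array per sample, for 47 arrays in 12 groups of 4, except aorta at 4 hr after GMA-SS with 3. Each recovery time had its own air mice. The question was whether expression differed between GMA-SS and air in each tissue at each time.

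Complement is a cascade of plasma proteins that marks and lyses targets and recruits leukocytes. The classical pathway starts when C1q, built from the chains of C1qa, C1qb and C1qc, binds a target and C4 and C2 are cleaved into a C3 convertase, while in the alternative pathway factor B (Cfb) joins C3b in a second convertase that amplifies the first. C1 inhibitor (Serping1) blocks the C1 proteases, and C3ar1 and C5ar1 are the receptors of the anaphylatoxins C3a and C5a. Liver makes most of the plasma components, whereas C1q comes largely from macrophages and related cells, and epithelial cells and macrophages of the lung also make C3 and factor B.

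In the mouse genome (GRCm38.p6), C4b (chr17:34728139-34743902), Cfb (chr17:34856374-34862514) and C2 (chr17:34862602-34882100) lie in the same stretch of chromosome 17, and C3 lies on the same chromosome at chr17:57203967-57228136. C1qa (chr4:136895916-136898844) and C1qb (chr4:136880126-136886200) flank C1qc on chromosome 4, and Serping1 (chr2:84765360-84775444), C3ar1 (chr6:122847140-122856157) and C5ar1 (chr7:16246743-16259540) lie on chromosomes of their own. RefSeq windows upstream of the transcription start were at hand for 4 of the 9 genes, and those of C1qb and C3, which rose in lung, are printed with that of C1qc, which was among the genes whose lung signals were most like those of C1qa and C1qb. Each is the 250 bases before the start, read 5′ to 3′ on the minus strand of the gene, in lower case with matches to the searched motifs in capitals.
C1qb (chr4:136886201-136886450): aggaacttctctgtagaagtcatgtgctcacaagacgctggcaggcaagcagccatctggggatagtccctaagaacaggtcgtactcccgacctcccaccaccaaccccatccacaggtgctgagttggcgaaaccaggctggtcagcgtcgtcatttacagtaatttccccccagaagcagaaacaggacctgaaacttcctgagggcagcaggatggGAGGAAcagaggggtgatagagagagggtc
C1qc (chr4:136892915-136893164): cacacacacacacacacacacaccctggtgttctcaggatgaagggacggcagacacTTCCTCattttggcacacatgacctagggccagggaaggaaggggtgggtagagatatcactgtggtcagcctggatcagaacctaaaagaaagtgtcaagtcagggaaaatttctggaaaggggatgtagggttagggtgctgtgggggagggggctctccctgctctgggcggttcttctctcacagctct
C3 (chr17:57228137-57228386): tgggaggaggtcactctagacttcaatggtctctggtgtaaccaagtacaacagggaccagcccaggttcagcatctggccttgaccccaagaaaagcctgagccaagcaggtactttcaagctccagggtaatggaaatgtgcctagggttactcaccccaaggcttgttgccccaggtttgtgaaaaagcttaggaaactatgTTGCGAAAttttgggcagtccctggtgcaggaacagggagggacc

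The 4 sets of letters searched on both strands were GAAANNGAA, the core of an interferon-stimulated response element, TTCNNNGAA, the gamma-activated site of STAT factors, TTGCNNAA, a form bound by C/EBP factors, and GAGGAA, a form bound by the myeloid factor PU.1. C1qb held GAGGAA 30 to 25 bases before the start, and C1qc held it on the opposite strand 193 to 188 bases before the start. C3 held TTGCGAAA, a match to TTGCNNAA, 45 to 38 bases before the start. The first and the second set of letters were in none of the 3 windows. Of 32851 RefSeq windows of this length, GAGGAA was in 23.3%, TTGCNNAA in 9.56%, GAAANNGAA in 7.13% and TTCNNNGAA in 7.02%. A match describes letters only.

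The arrays were compared as background-corrected, quantile-normalized log2 signals within a tissue, and signals of different genes were not set against each other because probes differ in brightness. A gene entered the test if 3 or more arrays of its tissue read it above background (detection p under 0.05), which left 11133 genes in lung, 9259 in whole blood cells and 9850 in aorta. A gene was called where its adjusted p (limma, Benjamini-Hochberg over all genes of the tissue) was under 0.05. Between 10239 and 10872 entries per lung array, 8090 and 8406 per blood array and 8678 and 9646 per aorta array exceeded background. All 5 markers of alveolar and airway epithelium exceeded background on all 16 lung arrays, 3 of 4 erythroid and 3 of 3 leukocyte markers on all 16 blood arrays, and 4 of 5 smooth muscle markers on all 15 aorta arrays. The aorta arrays also carried adipocyte markers (4 of 5 on all arrays) and cardiac muscle markers (4 of 4). A single aorta array, GMA-SS replicate 2 at 28 d, stood apart: all 5 alveolar and airway genes exceeded background there against 0 or 1 on every other aorta array, and its signal for Sftpc, the surfactant protein C gene, was 2276 against 63.3 to 84.4 elsewhere. Each beadchip held 1 tissue at 1 time, with air arrays in the first positions and GMA-SS arrays in the later ones, so that position and exposure, and chip and time, cannot be told apart.

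In lung, the 7 detected complement genes all rose after GMA-SS, at 4 hr and again at 28 d. Cfb rose 3.43-fold at 4 hr and 3.35-fold at 28 d, C1qb 2.80-fold and 3.17-fold, and C1qa 2.55-fold and 2.76-fold. C4b rose 1.94-fold and 1.85-fold, C2 1.52-fold and 1.57-fold, C3 1.43-fold and 1.63-fold, and Serping1 1.23-fold and 1.21-fold. The 2 anaphylatoxin receptors, C3ar1 and C5ar1, exceeded background on 0 of 16 lung arrays. Each was read by 1 probe, so a missing signal need not mean missing RNA. Of all lung genes tested, 9.58% were called higher at 4 hr and 7.66% at 28 d, against 7 of 7 members at each time. The members were chosen with earlier results of these data known. Such shares, here and below, therefore describe the members and do not test them as a group. The median log2 fold change of the 7 members was 0.96 at 4 hr and 0.89 at 28 d, where that of all genes was -0.04 at both times. Lung RNA came from whole lung homogenates, in which more cells of a type and more RNA per cell cannot be told apart.

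**Figure D1:**
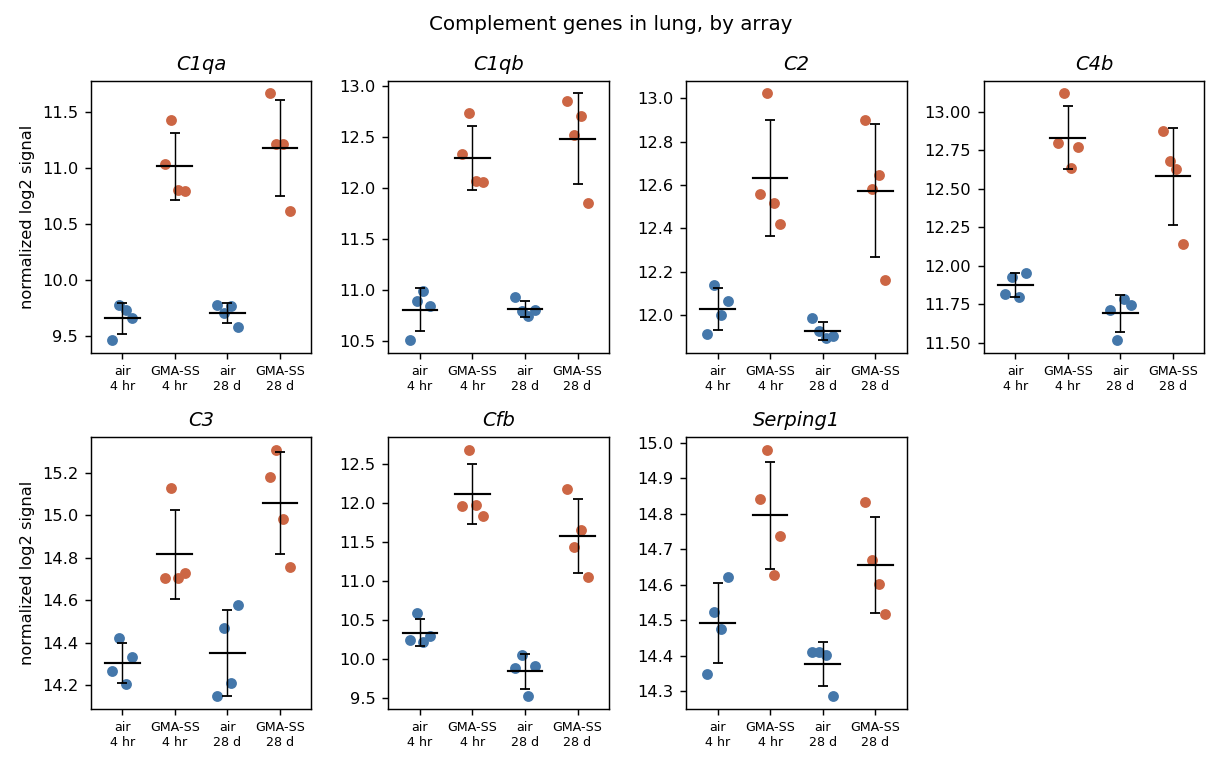
Normalized log2 signal of the 7 detected complement genes on each lung array, for air and GMA-SS at 4 hr and 28 d (4 arrays each); bars are the mean and SD, and each vertical axis has its own range. In all 7 panels the 4 GMA-SS arrays lie above the 4 air arrays of the same time.

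C1qa and C1qb encode the A and B chains of C1q, the recognition molecule of the classical pathway. For C1qa, the log2 signal was 9.46, 9.78, 9.73 and 9.66 in the air lungs at 4 hr and 11.03, 11.42, 10.80 and 10.79 in the GMA-SS lungs. The lowest GMA-SS array stood a full log2 unit above the highest air array. The log2 fold change was 1.35 ± 0.17 (SE, n = 4 per group; limma adjusted p = 2.81e-05). At 28 d, C1qa was 9.78, 9.70, 9.77 and 9.58 in air and 11.66, 11.21, 11.21 and 10.62 after GMA-SS. The air arrays were close together and GMA-SS replicate 4 was the lowest of its group, yet the groups again did not overlap, with a log2 fold change of 1.47 ± 0.17 (limma adjusted p = 1.78e-05).

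C1qb followed the same course. At 4 hr its log2 signal was 10.51, 10.89, 10.99 and 10.85 in air and 12.33, 12.73, 12.07 and 12.06 after GMA-SS, a log2 fold change of 1.49 ± 0.18 (SE, n = 4 per group; limma adjusted p = 1.86e-05). At 28 d it was 10.93, 10.80, 10.74 and 10.80 in air and 12.85, 12.52, 12.71 and 11.85 after GMA-SS, a log2 fold change of 1.66 ± 0.18 (limma adjusted p = 9.90e-06). At both times every exposed lung lay above every air lung, by less in replicate 4 at 28 d than in the other three. C1qc, the third chain, was no member but rose alongside, from 10.55 ± 0.12 to 11.96 ± 0.30 at 4 hr (mean log2 signal ± SD, n = 4; limma adjusted p = 1.92e-05) and from 10.66 ± 0.11 to 12.25 ± 0.44 at 28 d (limma adjusted p = 9.30e-06). The probes of all 3 chains therefore read higher in the exposed lungs.

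C4b and C2 supply the pieces of the classical C3 convertase. C4b was 11.82, 11.93, 11.80 and 11.95 in air at 4 hr and 12.80, 13.12, 12.64 and 12.77 after GMA-SS, and 11.72, 11.52, 11.78 and 11.75 in air at 28 d against 12.88, 12.68, 12.63 and 12.14. The groups were apart at both times, with log2 fold changes of 0.96 ± 0.12 (limma adjusted p = 4.61e-05) and 0.89 ± 0.12 (limma adjusted p = 0.000127). C4b has a near-identical neighbour, C4a, whose own entry exceeded background on 0 arrays of any tissue. C2 was 11.91, 12.14, 12.00 and 12.06 in air at 4 hr and 12.56, 13.02, 12.52 and 12.42 after GMA-SS, a log2 fold change of 0.60 ± 0.13 (limma adjusted p = 0.00349). At 28 d C2 was 11.99, 11.92, 11.89 and 11.90 in air and 12.90, 12.58, 12.65 and 12.16 after GMA-SS, a log2 fold change of 0.65 ± 0.13 (limma adjusted p = 0.00292). At both times the lowest exposed lung lay above the highest air lung.

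Cfb, the protease subunit of the alternative convertase, had the largest fold change of the 7 members by point estimate at 4 hr and, in the main setting, at 28 d, where C1qb was above it in the authors' normalized values (log2 fold changes of 1.57 and 1.40) and without air replicate 3 (1.636 and 1.634). Its log2 signal was 10.24, 10.59, 10.22 and 10.30 in air at 4 hr and 11.96, 12.69, 11.97 and 11.84 after GMA-SS. The 4 exposed lungs lay more than a log2 unit above the air lungs, and the log2 fold change was 1.78 ± 0.20 (limma adjusted p = 1.14e-05), which ranked 63 among the 11133 genes by signed fold. At 28 d Cfb was 9.88, 10.04, 9.52 and 9.91 in air and 12.18, 11.44, 11.65 and 11.05 after GMA-SS, a log2 fold change of 1.74 ± 0.20 (limma adjusted p = 2.29e-05) and rank 79. C1qb ranked 93 at 4 hr and 85 at 28 d. Cfb and C2 are adjacent genes, and Cfb moved by the larger fold at each time.

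C3 is the component on which all pathways converge. At 4 hr it was 14.26, 14.42, 14.20 and 14.33 in air and 14.70, 15.13, 14.70 and 14.73 after GMA-SS, a log2 fold change of 0.51 ± 0.12 (limma adjusted p = 0.00637). Of the exposed lungs, 3 were nearly equal and replicate 2 was higher. At 28 d C3 was 14.15, 14.47, 14.21 and 14.58 in air and 15.18, 15.31, 14.98 and 14.76 after GMA-SS, a log2 fold change of 0.71 ± 0.12 (limma adjusted p = 0.000812), and the groups did not overlap.

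Serping1, the inhibitor, had the smallest fold change of the 7 members by point estimate at both times. Its probe was bright, with an unnormalized lung signal of 17144 to 44670. Whether probes of different brightness read the same fold was not tested. Its log2 signal was 14.35, 14.52, 14.47 and 14.62 in air at 4 hr and 14.84, 14.98, 14.63 and 14.74 after GMA-SS, and the highest air lung lay just below the lowest exposed lung. At 28 d it was 14.41, 14.41, 14.40 and 14.29 in air and 14.83, 14.67, 14.60 and 14.52 after GMA-SS. The log2 fold changes were 0.30 ± 0.08 (limma adjusted p = 0.0115) and 0.28 ± 0.08 (limma adjusted p = 0.0233). The call at 28 d rested on single arrays: without air replicate 4 the log2 fold change was 0.25 (limma adjusted p = 0.0727), and without GMA-SS replicate 1 it was 0.22 (limma adjusted p = 0.0900). Under the rule of the study's methods for lung, an unadjusted p under 0.05 with a fold of 1.3, Serping1 was the member that did not pass, and the other 6 passed at both times, where 7.97% of all genes passed upward at 4 hr and 7.21% at 28 d. Groups that did not overlap, with GMA-SS above air, were found for 7 of 7 members at each time and for 12.0% of all genes at 4 hr and 6.93% at 28 d.

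No difference between the times in exposure effect was called for the 7 members. The change in log2 fold change from 4 hr to 28 d lay between -0.07 for C4b and 0.19 for C3, and 0 of 7 changes were called or had an unadjusted p under 0.05 in limma, where 0.566% of all lung genes were called. The 95% confidence interval of the change was -0.17 to 0.56 for C3, -0.36 to 0.71 for C1qb and -0.65 to 0.58 for Cfb.

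**Figure D2:**
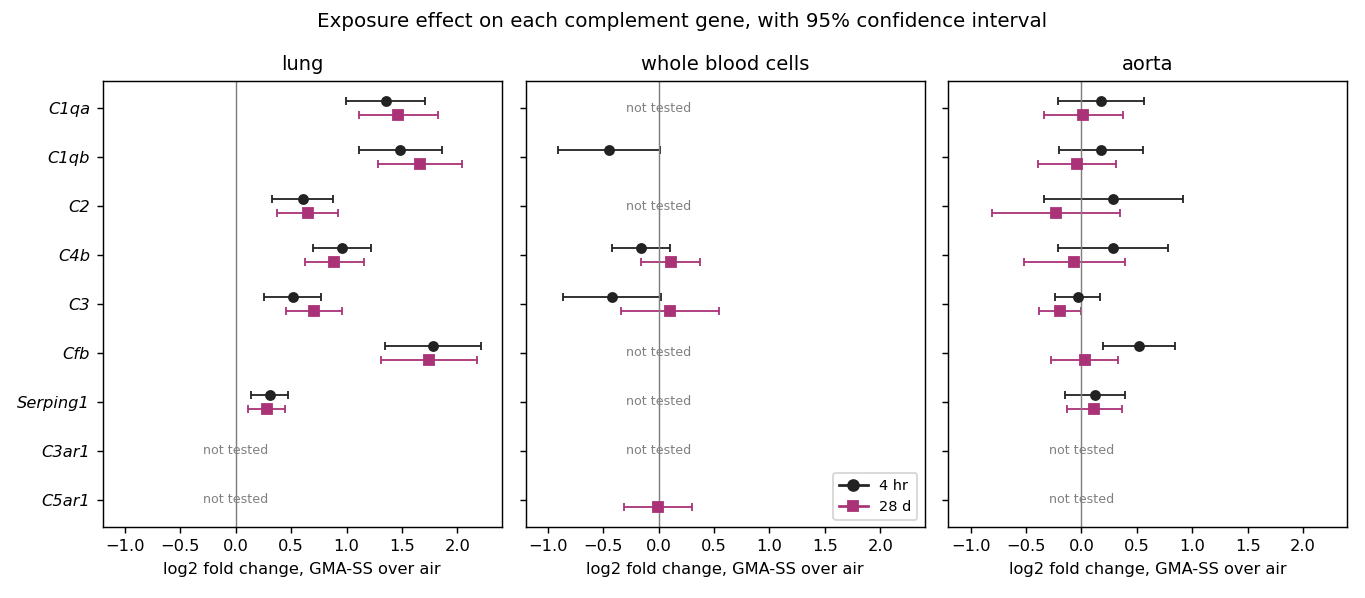
Log2 fold change of GMA-SS over air for each complement gene in lung, whole blood cells and aorta at 4 hr (circles) and 28 d (squares), with the 95% confidence interval from limma. All 14 lung intervals lie above 0. In blood and aorta 1 interval lies above 0 (Cfb, aorta, 4 hr) and 1 below 0 (C3, aorta, 28 d). Genes not tested are marked. C5ar1 at 4 hr and C1qb at 28 d in blood, above background on 0 GMA-SS arrays, are not drawn. C5ar1 at 28 d in blood is drawn and was above background on 1 air and 1 GMA-SS array.

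The lung arrays also varied together within groups. GMA-SS replicate 2 was the highest of its group for all 7 members at 4 hr, and GMA-SS replicate 4 was the lowest for all 7 at 28 d. Without that array at 28 d the log2 fold changes were higher, 1.92 for Cfb, 1.87 for C1qb and 1.65 for C1qa, and without replicate 2 at 4 hr they were lower, 1.59, 1.34 and 1.22, with 7 of 7 members called in either case. Over the 16 lung arrays, which share the exposure difference, Pearson's r between members ranged from 0.70 to 0.99 over 21 pairs (median 0.91), and with each group's mean removed from 0.48 to 0.96 (median 0.80). These correlations are descriptions over arrays of 2 chips. The non-member genes whose signals were most like the members' over the same 16 arrays, of all genes tested, were C1qc for C1qa (r = 0.994), Ms4a7 for C1qb (r = 0.992), Grn for C2 (r = 0.983), Il7r for C3 (r = 0.969), Ogfr for C4b (r = 0.989), Ly6e for Cfb (r = 0.988) and Lair1 for Serping1 (r = 0.967). The second closest were Oas1g for C1qa (r = 0.989), C1qc for C1qb (r = 0.992), Sh2d2a for C2 (r = 0.981) and Malt1 for C3 (r = 0.965). For C4b, Cfb and Serping1 they were Ifit3 (r = 0.981), Ifi27l2a (r = 0.982) and Evi2b (r = 0.957). Ifi27l2a was also among the closest 3 of C4b (r = 0.978). Of these genes, Oas1g, Ifit3, Ifi27l2a and Ly6e are interferon-induced.

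Macrophage and monocyte markers moved with the members in lung. At 4 hr 5 of 9 tested markers were called higher and 0 lower, and at 28 d 8 of 9 and 0. The defining marker Cd68 rose by 1.35 ± 0.14 at 4 hr and 1.48 ± 0.14 at 28 d on the log2 scale (SE; limma adjusted p = 4.63e-06 and 3.17e-06), and Adgre1, the F4/80 antigen, by 0.69 ± 0.16 and 0.85 ± 0.16 (limma adjusted p = 0.00434 and 0.00145). The summed marker signal, on the linear scale, was 8626 to 9939 in air and 12497 to 15152 after GMA-SS at 4 hr, and 9056 to 10524 in air and 13351 to 17700 after GMA-SS at 28 d. The array with the highest sum at 4 hr was GMA-SS replicate 2 and the exposed array with the lowest at 28 d was GMA-SS replicate 4, the same arrays that were extreme for the members. T cell markers were called higher for 5 of 5 genes at both times, with summed signals of 2364 to 2747 against 3563 to 6452 at 4 hr and 2626 to 2950 against 3362 to 6296 at 28 d. Of all 11133 lung genes tested, 1066 were called higher and 1105 lower at 4 hr, and 853 higher and 965 lower at 28 d. Neutrophil markers were called higher for 0 of 6 and lower for 2 of 6 at 4 hr, and higher for 1 and lower for 1 at 28 d. Adipocyte markers were called lower for 3 of 3 at 4 hr and 1 of 3 at 28 d. Smooth muscle markers were called lower for 3 of 4 at both times and higher for 1 at 4 hr. Cardiac muscle markers were called lower for 2 of 4 at 4 hr and 1 of 4 at 28 d, and erythroid markers for 2 of 3 and 1 of 3. Fibroblast markers were called higher for 3 of 5 and lower for 1 at 4 hr, and higher for 1 at 28 d. B cell markers were called for 0 of 3 at both times. Alveolar and airway epithelium markers were called higher for 1 of 5 at 4 hr, and higher for 1 and lower for 1 at 28 d. General leukocyte markers, which include the T cell marker Cd3e, were called higher for 2 of 3 at 4 hr and 3 of 3 at 28 d. Liver markers were tested for 0 of 4 genes, because they did not exceed background on 3 lung arrays. The part of cell number in the complement signals was not tested.

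**Figure D3:**
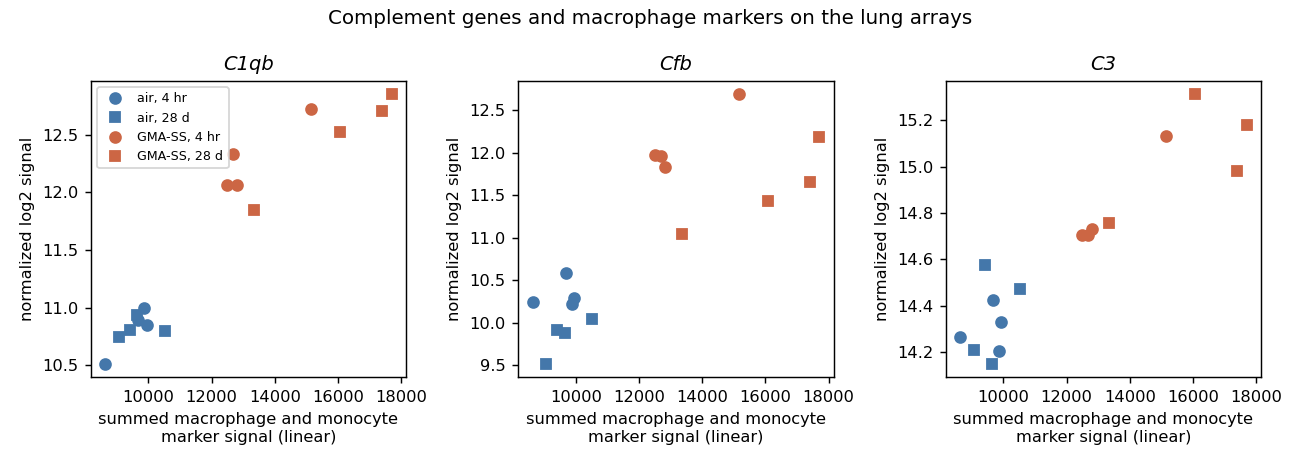
Normalized log2 signal of C1qb, Cfb and C3 on the 16 lung arrays against the summed linear signal of 9 macrophage and monocyte markers on the same array; colour marks the exposure and shape the time. The air arrays lie between 8626 and 10524 on the horizontal axis and the GMA-SS arrays between 12497 and 17700, and GMA-SS replicate 4 at 28 d has the lowest C1qb (11.85) and Cfb (11.05) of the exposed arrays.

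The other complement genes of the lung were taken from a list ordered by role. Beside the counts by role, here and in the next paragraph, stand those of all 11133 lung genes tested. Of these, 2171 were called in either direction at 4 hr and 1818 at 28 d. With so few genes per role, the counts describe the genes and do not test a role. Besides the members, 2 classical genes were tested, and C1qc was called at both times while C1s1, a C1 protease, was 0.25 ± 0.16 at 4 hr (log2 fold change ± SE; limma adjusted p = 0.291) and rose by 0.48 ± 0.16 at 28 d (limma adjusted p = 0.0443). Of 2 further alternative pathway genes, 1 was Cfd, which encodes the factor D protease and is strongly expressed in fat. Cfd fell by 0.71 ± 0.22 at 4 hr (limma adjusted p = 0.0303) and was 0.09 ± 0.22 at 28 d (limma adjusted p = 0.845). Adipocyte markers also fell at 4 hr, and the part of fat in the Cfd values was not tested. Cfp, properdin, which stabilizes the alternative convertase, was 0.12 ± 0.13 at 4 hr (limma adjusted p = 0.579) and rose by 0.42 ± 0.13 at 28 d (limma adjusted p = 0.0371). Among the 5 terminal genes, 1 was called: C6, a subunit of the membrane attack complex, rose by 0.33 ± 0.08 and 0.46 ± 0.08 (limma adjusted p = 0.00783 and 0.000992). Hc, which encodes C5, was -0.20 ± 0.08 at 4 hr (limma adjusted p = 0.105) and -0.03 ± 0.08 at 28 d (limma adjusted p = 0.847). The terminal genes other than C6 thus gave no call in either direction.

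Of the soluble regulators beside Serping1, 4 were tested and 1 was called: Vtn, vitronectin, which blocks assembly of the attack complex, fell by 0.41 ± 0.10 at 4 hr and 0.42 ± 0.10 at 28 d on the log2 scale (limma adjusted p = 0.00955 and 0.0103). Among 5 membrane regulators, Cd59a and Cd59b, inhibitors of the attack complex, fell by 0.25 ± 0.08 and 0.31 ± 0.11 at 4 hr (limma adjusted p = 0.0355 and 0.0464), and 0 of 5 were called at 28 d, where their log2 fold changes were -0.20 and -0.27 (limma adjusted p = 0.0987 and 0.0913). Of 4 tested receptor genes, Itgb2, the beta chain of complement receptors 3 and 4, rose by 0.70 ± 0.11 and 1.04 ± 0.11 (limma adjusted p = 0.000301 and 1.07e-05). Itgax, the alpha chain of complement receptor 4, was 0.17 ± 0.12 at 4 hr (limma adjusted p = 0.337) and rose by 0.57 ± 0.12 at 28 d (limma adjusted p = 0.00334). Itgax is also on the list of macrophage and monocyte markers, so its values are counted there too. Cd93 fell by 0.19 ± 0.06 at 4 hr (limma adjusted p = 0.0235) and was -0.16 ± 0.06 at 28 d (limma adjusted p = 0.0689). Vsig4, the complement receptor of tissue macrophages, was -0.28 ± 0.43 at 4 hr (limma adjusted p = 0.705) and 1.25 ± 0.43 at 28 d (limma adjusted p = 0.0549), with an SD of its log2 signal of 1.04 in the air lungs at 4 hr (n = 4). Of 2 lectin pathway genes 0 were called, with Fcna, a ficolin, at -0.46 ± 0.44 and 1.26 ± 0.44 (limma adjusted p = 0.515 and 0.0603). The difference between the times was not tested for these non-members.

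In whole blood cells, 5 of the 9 members did not pass the filter, and no member was called at either time. C1qb, C3, C4b and C5ar1 passed the filter; C1qa and Cfb exceeded background on 2 of 16 arrays each, and C2, Serping1 and C3ar1 on 0. By limma, 0 of 4 members were called and 0 had an unadjusted p under 0.05 at 4 hr or at 28 d, where 0.0108% and 0% of all genes were called. The rule of the study's methods for blood, an unadjusted p under 0.05 with a fold of 1.1, passed 0 of 4 members at either time, against 5.01% of all genes at 4 hr and 7.75% at 28 d. The groups overlapped for all 4 members, while 3.14% and 2.95% of all genes had groups that did not.

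C3 was the member above background on all 16 blood arrays. Its log2 signal at 4 hr was 8.68, 9.27, 8.47 and 8.63 in air and 8.50, 8.68, 7.96 and 8.22 after GMA-SS, a log2 fold change of -0.42 with a 95% confidence interval of -0.86 to 0.02 (limma adjusted p = 0.998). At 28 d it was 9.67, 9.30, 10.12 and 9.84 in air and 9.88, 9.72, 10.33 and 9.42 after GMA-SS, a log2 fold change of 0.10 with an interval of -0.34 to 0.54 (limma adjusted p = 0.934). The 28 d arrays read higher than the 4 hr arrays in both exposures, and time and chip cannot be told apart there. C4b, above background on 14 of 16 arrays, lay between 5.15 and 5.75 in all 16 values, with log2 fold changes of -0.16 (-0.42 to 0.10; limma adjusted p = 0.998) and 0.11 (-0.16 to 0.37; limma adjusted p = 0.877). C1qb exceeded background on 5 of 16 arrays, and its log2 fold change at 4 hr was -0.45 (-0.91 to 0.01; limma adjusted p = 0.998), with 3 air arrays and 1 GMA-SS array above background. C5ar1, a receptor of neutrophils and monocytes, exceeded background on 3 of 16, whereas 5 of 9 neutrophil markers did so on all 16. How well the 1 probe of C5ar1 reads its RNA was not tested. For C5ar1 at 4 hr and C1qb at 28 d, no GMA-SS array exceeded background, and no fold is given. The exposure effect did not pass the test of a difference between times for any of the 4 (0 of 4 at an adjusted or unadjusted p under 0.05, where 0% of all blood genes were called; limma).

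In aorta, the same 7 members as in lung were above background on all 15 arrays, and C3ar1 and C5ar1 on 0. By limma 0 of 7 were called at 4 hr and 0 of 7 at 28 d, where 0% of all aorta genes were called at either time. At an unadjusted p under 0.05 there was 1 member at each time, Cfb at 4 hr and C3 at 28 d. These also passed the methods' rule of a 1.1-fold change, which 3.72% of all genes passed at 4 hr and 6.25% at 28 d.

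Cfb was higher in each of the 3 exposed aortas at 4 hr: 7.49, 7.87 and 7.38 against 6.98, 7.06, 6.95 and 7.25 in air. The log2 fold change was 0.52 ± 0.15 (SE, n = 3 and 4; 95% confidence interval 0.19 to 0.85; limma unadjusted p = 0.00420, adjusted p = 1.00), 1.43-fold, and it ranked 56 by signed fold and 32 by p among 9850 genes. Cfb was 1 of 7 members whose groups did not overlap, a pattern shown by 8.91% of all aorta genes at 4 hr. The log2 fold change was 0.20 in the authors' normalized values. At 28 d Cfb was 7.85, 7.39, 7.48 and 7.50 in air and 7.34, 7.88, 7.72 and 7.40 after GMA-SS, a log2 fold change of 0.03 (-0.27 to 0.33; limma adjusted p = 0.971). The change of its effect between the times was -0.49 (-0.93 to -0.04; limma unadjusted p = 0.0341, adjusted p = 0.999), and 0 of 7 members were called for such a change, where 0% of all genes were.

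C3 in aorta was 12.65, 12.89, 12.91 and 12.84 in air and 12.78, 12.78 and 12.80 after GMA-SS at 4 hr, and 13.24, 12.80, 13.22 and 12.95 in air and 12.92, 12.94, 12.85 and 12.75 after GMA-SS at 28 d. The groups overlapped at both times, with a log2 fold change at 28 d of -0.19 ± 0.09 (SE, n = 4 per group; limma unadjusted p = 0.0457, adjusted p = 0.709). At 4 hr the log2 fold changes of the other 6 members were above 0, from 0.12 for Serping1 to 0.52 for Cfb, and at 28 d 3 of 7 were above 0 and 4 below. The widest 95% confidence intervals were those of C2, -0.34 to 0.91 at 4 hr and -0.80 to 0.35 at 28 d. At 28 d, 0 of 7 members had groups that did not overlap, against 2.26% of all genes.

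Single aorta arrays moved several values at 28 d. Air replicate 1 was the highest of its group for all 7 members, with 9.89 for C2 and 10.09 for C4b where the other air arrays were 8.36 to 9.07 and 9.01 to 9.50, and without it the log2 fold changes of C2 and C4b were 0.08 and 0.15 rather than -0.23 and -0.07. GMA-SS replicate 2, the array with the alveolar and airway genes, read highest of its group for C2, C3, C4b, Cfb and Serping1. Without it the log2 fold changes were 0.04 for C1qa, 0.01 for C1qb, -0.36 for C2, -0.22 for C3, -0.25 for C4b, -0.07 for Cfb and -0.00072 for Serping1 (limma adjusted p from 0.470 to 0.999), with 0 of 7 members called. With it, Serping1 was 11.74, 11.28, 11.46 and 11.45 in air and 11.50, 11.95, 11.43 and 11.51 after GMA-SS, a log2 fold change of 0.12 ± 0.12. The part of lung RNA in that array was not tested.

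Liver markers stood high on 3 other aorta arrays. Their summed linear signal, over the 3 of 4 markers tested, was 1534 in GMA-SS replicate 3 at 28 d, 816 in air replicate 1 at 4 hr and 411 in GMA-SS replicate 3 at 4 hr, against 71.6 to 155 on the other aorta arrays. The log2 fold change of Cfb at 4 hr was 0.49 without that air array (limma adjusted p = 1.00) and 0.62 without that GMA-SS array (limma adjusted p = 0.950). Without the GMA-SS array those of C1qb and C2 were 0.37 and 0.52, and 0 of 7 members were called with either array left out. Without GMA-SS replicate 3 at 28 d, 0 of 7 were called and Cfb was -0.014. The part of liver RNA in these arrays was not tested.

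**Figure D4:**
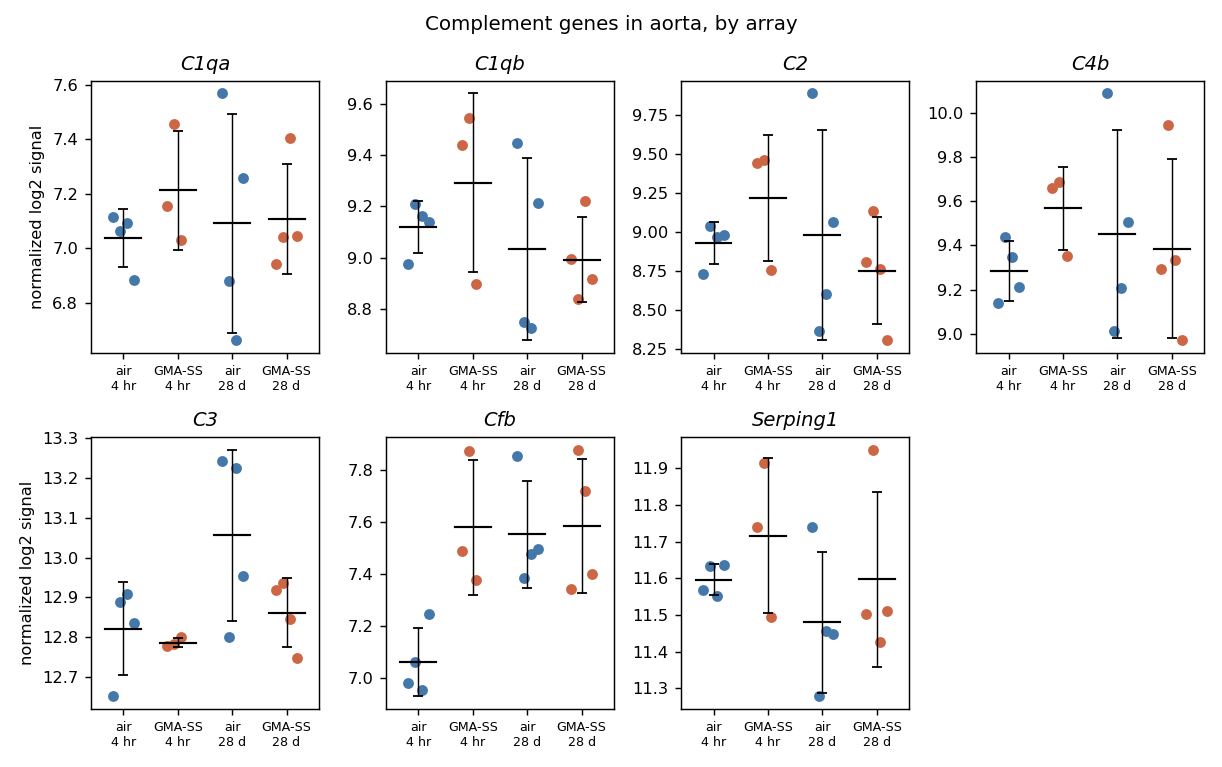
Normalized log2 signal of the same 7 complement genes on each aorta array, for air and GMA-SS at 4 hr (4 and 3 arrays) and 28 d (4 arrays each); bars are the mean and SD, and each vertical axis has its own range. Cfb at 4 hr is the panel and time at which the groups do not overlap, and air replicate 1 at 28 d is the highest air array in each panel.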

How the data were processed

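Illumina mouse beadchips were hybridized with RNA from whole lung, globin-depleted blood cells or aorta. The average signal deposited by the authors is a mean bead intensity from BeadStudio, linear and without normalization. The detection p-value deposited with it gives the fraction of negative control beads that reached the brightness of the entry. The log2 values deposited in the sample tables were normalized by the authors (their methods name lumi and limma) and were used only as an alternative. The 141 columns of these 3 kinds were read in full. Detection p-values moved in steps of 1 in 798, which gave each array's background mean and spread. Background was subtracted with the normexp model (limma 3.58.1, R 4.3.3), a constant of 16 preceded the log2 step, and quantile normalization was done within each tissue. Entries read above background (detection p under 0.05) on 3 or more arrays were kept, with the entry of highest mean for each symbol. Symbols were assigned by Entrez number (16590 of 18138 entries), RefSeq accession (883) or as given (665).

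For each tissue 1 model with a mean per group was fitted in limma (moderated variance with an intensity trend), and p-values were adjusted by Benjamini-Hochberg over all genes. The label of each array holds a number and does not say what it counts. Aorta arrays bore numbers that blood arrays of the same time and exposure also bore, while lung arrays bore other numbers. The tissues were tested apart, and blood and aorta arrays cannot be taken as separate mice. The number of arrays limits the precision. The fit was also run on simulated data in which entries varied independently of each other. The arrays here varied together within groups, so no result is drawn from that run. Members, pathway lists and marker lists were chosen with earlier results of these data known. All 9 members are described in each tissue, other complement genes by role (up to 4 per role, by lowest p in lung), and the genes most like each member by Pearson's r over the lung arrays. Alternative settings were to skip background correction, to scale to the 75th percentile, to drop the filter, tighten it to a detection p of 0.01 or keep bright entries, to fit the compared groups alone, to use the authors' normalized log2 values, to weight arrays, to add a block for replicate number, and to omit single arrays. Genes below background were not tested.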

Additional observations from a re-analysis of the deposited data

Results flagged for a closer look

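Of 65 groups of 4 arrays in which a member's level was examined, 6 held an array whose gap to the others exceeded Dixon's 95% limit, and chance flags about 1 in 20. In lung at 4 hr after GMA-SS, replicate 2 was far above the others for C3 (15.13 against 14.70 to 14.73) and Cfb (12.69 against 11.84 to 11.97), and its macrophage and monocyte marker sum stood apart too (13.89 on the log2 scale against 13.61 to 13.65). In air lungs at 28 d, Serping1 was lowest in replicate 4 (14.29 against 14.40 to 14.41). In whole blood cells, C1qb was highest in air replicate 1 at 28 d (5.70 against 4.77 to 4.87) and C5ar1 in air replicate 4 at 4 hr (5.54 against 4.81 to 4.91), both near background.

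In aorta at 28 d after GMA-SS, Serping1 was highest in replicate 2 (11.95 against 11.43 to 11.51), the array whose alveolar and airway marker signal was 14.40 on the log2 scale against 6.34 to 7.46. In the same group, replicate 3 had liver markers at 10.58 against 6.70 to 7.28. At 4 hr in aorta the linear sum of the liver markers was 816 in air replicate 1 and 411 in GMA-SS replicate 3, against 71.6 to 155 on the other aorta arrays of both times outside these 3. The part of these in the aorta values was not tested.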

How the results depend on the processing

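The count of members called in lung was 7 of 7 at 4 hr under every alternative that was run, and at 28 d under all but 2: it was 6 without air replicate 4 and 6 without GMA-SS replicate 1, where Serping1 was not called (range 6 to 7 with each array left out). It was 0 in blood and aorta under every alternative, including the replicate block (7 in lung at 4 hr and 28 d, 0 elsewhere); with no filter 9 members were tested and the counts were the same. Over 17 alternatives per time the lung log2 fold changes lay between 1.40 and 1.92 for Cfb at 28 d and between 1.00 and 1.43 for C1qa at 4 hr, and were above 0 for all 7 members. The replicate numbers only give the order of the arrays within each group, and nothing in the labels pairs air with GMA-SS arrays. Same-numbered air and GMA-SS arrays deviated together with r of -0.33 to 0.49. The block changed no call of a member, and since its numbers carry no known pairing, nothing is concluded from that. The count of all lung genes called at 28 d, 1818, was 1166 with only the groups compared, 1130 without GMA-SS replicate 1 and 1081 without GMA-SS replicate 3.

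Uncalled values near 0 changed sign, and the cause was not tested. In blood at 28 d, C5ar1 (-0.01) was 0.070 with 75th percentile scaling and 0.049 with array weights, and C4b (0.11) was -0.0017 with array weights. In aorta at 28 d, C1qa (0.02) was -0.0059 in the authors' normalized values and -0.035 with array weights, and Cfb (0.03) was -0.053 with array weights. With each array left out in turn, the ranges at 28 d were -0.061 to 0.24 for C3 and -0.069 to 0.085 for C5ar1 in blood, and in aorta -0.13 to 0.17 for C1qa, -0.14 to 0.10 for C1qb, -0.43 to 0.075 for C2, -0.25 to 0.15 for C4b, -0.068 to 0.13 for Cfb and -0.00072 to 0.20 for Serping1. Signals near background limit C1qb, C4b and C5ar1 in blood.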
